A study of Rattus norvegicus with 12 samples.

Results

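Cholesterol synthesis and sterol sensing were followed through Insig1, the sterol sensor of the set, and the enzyme genes Pmvk, Idi1, Sqle, Cyp51, Msmo1 and Nsdhl in rat mammary gland. The members were the probe sets named in the platform annotation for 1 of 8 symbols. Of these symbols 7 had a probe set, with 10 probe sets in all among 31099 on the array, and Hmgcs1 was not analysed here. Averaging the probe sets of a gene gave 7 genes of 14217. Female Sprague-Dawley rats ate soy protein isolate or casein, the milk protein, from postnatal day 30 to day 64. All had their ovaries, where most estrogen is made, removed on day 50. They were then given 17β-estradiol (E2) from a mini-osmotic pump, or vehicle, for 14 days. The 4 groups were soy plus E2, casein plus E2, soy with vehicle and casein with vehicle, each with 3 arrays of RNA pools from whole abdominal glands. The number of rats in a pool is not given in the sources used here, and no label states that pools of a group came from separate animals. The p-values therefore cover the spread from pool to pool, which may be technical.

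Cells make cholesterol from acetyl-CoA through mevalonate, isoprenoids, squalene and lanosterol. The genes of these steps are switched on together by sterol regulatory element binding proteins (SREBPs), which the protein Scap carries out of the endoplasmic reticulum when sterols are scarce. Insig proteins hold Scap in place when sterols are plentiful, and Insig1 is itself an SREBP target. In the mammary gland both the fat cells and the secretory epithelium make lipid, and milk fat globules carry cholesterol.

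Promoter windows, from 250 bases before to 50 bases after the start of the gene, are shown for 4 members whose mRNAs moved together with E2. The sequences are from RefSeq, build GRCr8, 5′ to 3′ in the direction of the gene. Windows were held for 5 of the 7 members, and none for Pmvk and Sqle. The windows are chr4:8057720-8058019 on the minus strand for Insig1, chrX:155817110-155817409 on the plus strand for Nsdhl, chr16:29746863-29747162 on the plus strand for Msmo1 and chr4:30991443-30991742 on the plus strand for Cyp51. Capitals mark matches, on either strand, to the CCAAT box (CCAAT, bound by NF-Y), the GC box (GGGCGG, bound by Sp1) and a sterol regulatory element core (TCACNCCA).
Insig1: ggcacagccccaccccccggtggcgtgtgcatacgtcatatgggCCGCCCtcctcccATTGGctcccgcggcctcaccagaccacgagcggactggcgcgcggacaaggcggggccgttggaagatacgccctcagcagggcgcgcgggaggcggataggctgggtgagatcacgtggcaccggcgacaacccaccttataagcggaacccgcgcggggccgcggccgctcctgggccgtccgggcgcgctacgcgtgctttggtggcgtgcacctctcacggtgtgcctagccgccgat
Nsdhl: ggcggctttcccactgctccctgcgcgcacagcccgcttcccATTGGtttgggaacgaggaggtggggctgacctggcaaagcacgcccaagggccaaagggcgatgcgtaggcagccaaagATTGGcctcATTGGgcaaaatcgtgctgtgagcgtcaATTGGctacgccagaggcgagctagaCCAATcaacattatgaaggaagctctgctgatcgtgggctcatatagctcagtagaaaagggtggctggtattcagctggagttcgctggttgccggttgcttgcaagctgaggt
Msmo1: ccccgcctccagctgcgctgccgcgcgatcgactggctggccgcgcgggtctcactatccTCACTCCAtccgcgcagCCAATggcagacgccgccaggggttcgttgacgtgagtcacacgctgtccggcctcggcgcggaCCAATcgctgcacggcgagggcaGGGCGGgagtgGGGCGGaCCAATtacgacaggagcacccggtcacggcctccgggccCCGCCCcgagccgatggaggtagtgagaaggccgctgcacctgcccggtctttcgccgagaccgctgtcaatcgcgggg
Cyp51: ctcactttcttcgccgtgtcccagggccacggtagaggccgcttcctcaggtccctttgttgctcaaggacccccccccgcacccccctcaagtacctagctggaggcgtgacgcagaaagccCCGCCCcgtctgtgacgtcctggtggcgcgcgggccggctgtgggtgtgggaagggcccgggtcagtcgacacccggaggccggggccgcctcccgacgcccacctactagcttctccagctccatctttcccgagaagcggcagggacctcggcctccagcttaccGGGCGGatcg
The Nsdhl window held 5 CCAAT boxes, Msmo1 held 3, Idi1 held 2, Insig1 held 1 and Cyp51 held 0. A CCAAT box was thus in 4 of the 5 member windows, in 28 of 40 windows of measured cholesterol genes (70%) and in 37.5% of all 33469 windows. A GC box was in 3 of the 5 member windows, in 28 of the 40 (70%) and in 33.1% of all windows. The member windows had 53.7% to 71.3% G or C, beside a median of 51.7% over all windows. The sterol element core was in 1 member window, at -190 from the start of Msmo1, where it reads TCACTCCA. It was in 2 of the 40 windows of cholesterol genes (5%) and in 3.89% of all windows. No matches overlapped in the member windows. These are counts of letters in a short window and say nothing about binding in the gland.

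The values were read as log2 values and are centred on the median of each probe set over the 12 arrays, so they show how arrays differ and hold no absolute level. The labelled tissue could therefore not be checked against the presence of its markers, and a value of 0 falls between the groups wherever 6 arrays lie above the other 6. Precision is limited by the small number of arrays. Casein plus E2 pools 2 and 3 were nearly 1 array. The SD of their difference over all probe sets was 0.163, against 0.301 or more in the 65 other pairs, and they were averaged into 1 sample (n = 2 in casein plus E2, n = 3 elsewhere). Casein pool 3 stood apart by liver transcripts, with a mean of 5.67 over 17 liver genes against at most 0.24 on the other arrays. Skeletal muscle transcripts were high in soy pool 2 (3.83) and casein pool 2 (3.63). Spike-in controls divided the arrays into 6 above 0 and 6 below 0, with 2 and 4 E2 arrays. A near-even split is built in, because each probe set is centred on its median. Casein pool 2 stood out in spike-in signal at 1.11, against at most 0.26 on the other arrays.

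E2 lowered 6 of the 7 genes when averaged over both diets. Insig1 fell by 1.60 ± 0.32 (log2 fold change ± SE), a 3.03-fold difference, Nsdhl by 1.05 ± 0.18, Msmo1 by 0.74 ± 0.14, Cyp51 by 0.73 ± 0.12, Sqle by 0.61 ± 0.12 and Pmvk by 0.46 ± 0.07. Idi1 had -0.42 ± 0.15 and did not pass. Calls are from limma at a Benjamini-Hochberg adjusted p under 0.05 over all 14217 genes, of which 5.51% were called lower with E2 on average and 12.2% in either direction. The members were chosen with results of these data known, so their share is a description. Their median change was -0.73, beside 0.0042 over all genes.

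**Figure D1:**
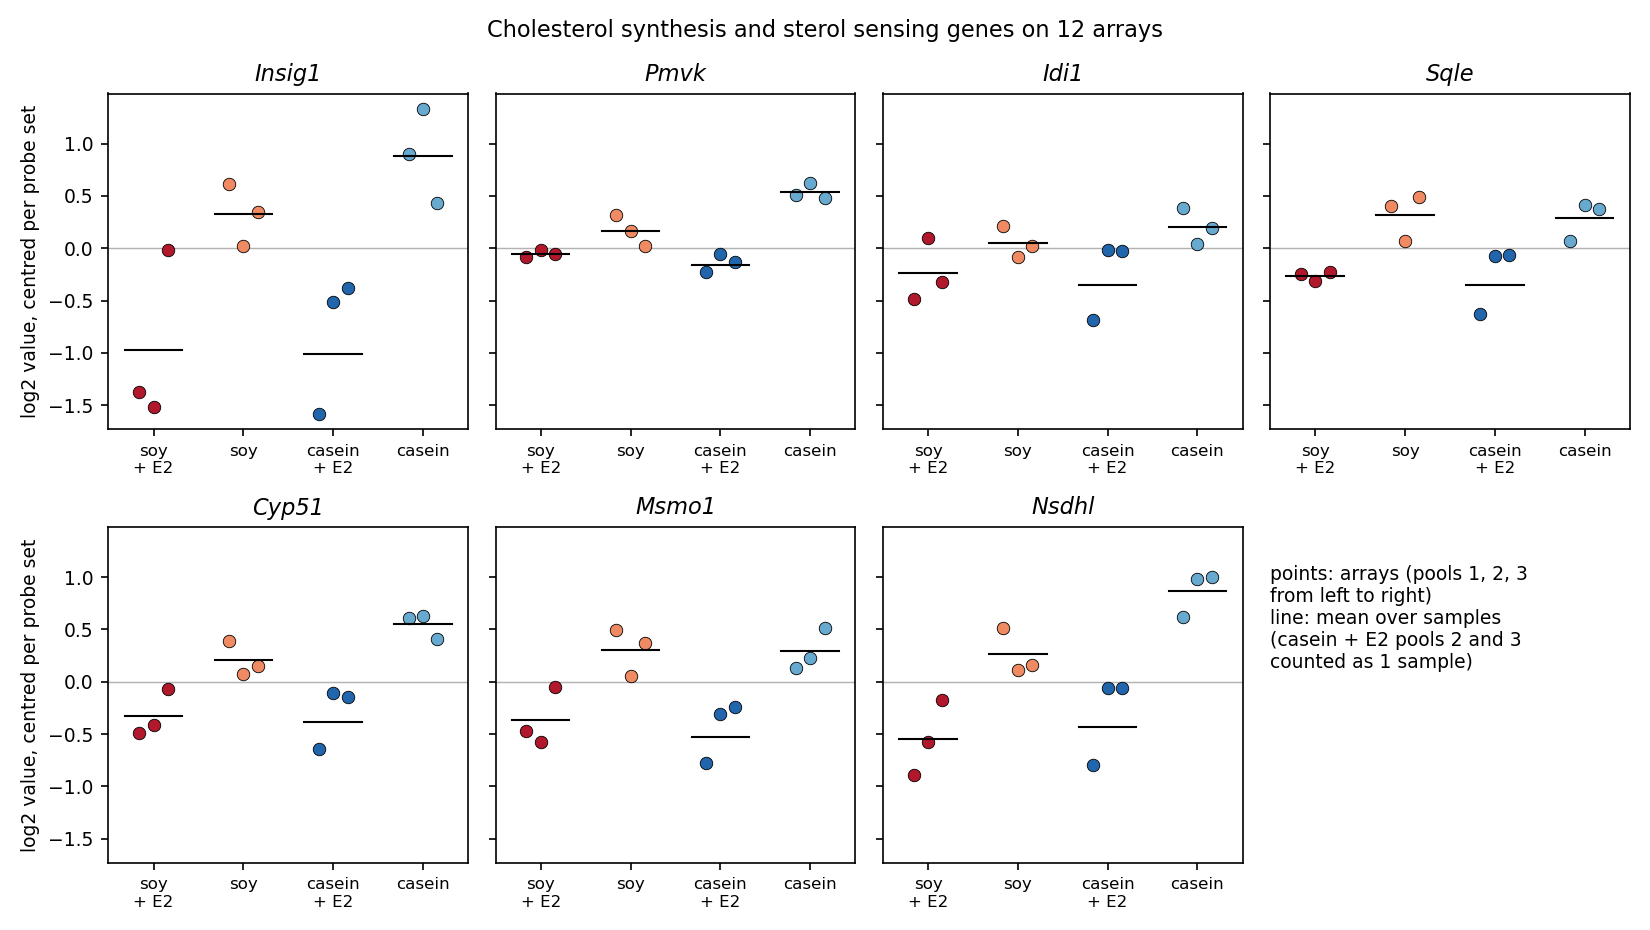
Centred log2 value (y axis) of each of the 7 genes on the 12 arrays, by group (x axis); points are pools 1 to 3 and the line is the mean over samples. For every gene but Idi1 the 6 E2 arrays lie below the 6 vehicle arrays, with Insig1 spanning the widest range (-1.58 to 1.33).

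Insig1 showed the widest spread. Its values were -1.38, -1.52 and -0.02 in soy plus E2 pools 1 to 3 and -1.58, -0.51 and -0.38 in casein plus E2 pools 1 to 3, against 0.61, 0.02 and 0.34 in soy pools and 0.90, 1.33 and 0.43 in casein pools. All E2 arrays were lower than all vehicle arrays, but only by 0.033 between soy plus E2 pool 3 and soy pool 2. The adjusted p of the E2 average was 0.0183 in limma. Group means were -0.97 ± 0.83 in soy plus E2 (SD, n = 3), -1.02 ± 0.80 in casein plus E2 (n = 2), 0.32 ± 0.30 in soy (n = 3) and 0.89 ± 0.45 in casein (n = 3).

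Pmvk encodes phosphomevalonate kinase, a mevalonate step. It stood at -0.09, -0.02 and -0.06 in soy plus E2 pools and -0.23, -0.06 and -0.13 in casein plus E2 pools, against 0.32, 0.16 and 0.02 in soy pools and 0.51, 0.62 and 0.48 in casein pools. The casein pools stood above every other array, and the soy pools lay between them and the E2 arrays. Pmvk had the smallest SE of the 7 genes and an adjusted p of 0.00861 in limma. Idi1 encodes isopentenyl diphosphate isomerase, which interconverts the isoprenoid building blocks. It stood at -0.48, 0.10 and -0.33 in soy plus E2 pools and -0.68, -0.02 and -0.02 in casein plus E2 pools, against 0.21, -0.09 and 0.02 in soy pools and 0.39, 0.04 and 0.19 in casein pools. The groups overlapped, with soy plus E2 pool 2 above 3 vehicle arrays, and the adjusted p was 0.0947.

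Sqle encodes squalene epoxidase, a flux-controlling enzyme that makes the first oxygenated intermediate of the sterol branch. It stood at -0.25, -0.31 and -0.22 in soy plus E2 pools and -0.62, -0.07 and -0.07 in casein plus E2 pools, against 0.40, 0.07 and 0.49 in soy pools and 0.07, 0.42 and 0.38 in casein pools. The lowest vehicle arrays, soy pool 2 and casein pool 1, were 0.135 or more above the highest E2 array (adjusted p = 0.0183 in limma).

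Cyp51, Msmo1 and Nsdhl take part, in that order, in removing the extra methyl groups of lanosterol. Cyp51, the lanosterol demethylase, stood at -0.49, -0.42 and -0.07 in soy plus E2 pools and -0.64, -0.11 and -0.14 in casein plus E2 pools, against 0.39, 0.07 and 0.15 in soy pools and 0.61, 0.62 and 0.41 in casein pools. Msmo1, the methylsterol monooxygenase, stood at -0.47, -0.57 and -0.05 in soy plus E2 pools and -0.78, -0.31 and -0.24 in casein plus E2 pools, against 0.49, 0.05 and 0.37 in soy pools and 0.13, 0.23 and 0.51 in casein pools. Neither gene's E2 arrays overlapped the vehicle arrays (adjusted p = 0.0109 and 0.0155 in limma). Nsdhl, a sterol dehydrogenase, stood at -0.90, -0.57 and -0.17 in soy plus E2 pools and -0.80, -0.06 and -0.06 in casein plus E2 pools, against 0.51, 0.11 and 0.16 in soy pools and 0.62, 0.98 and 1.0 in casein pools. Averaged over probe sets, Nsdhl had the widest gap between E2 and vehicle arrays, 0.167, and an adjusted p of 0.0109 in limma. Each of its probe sets alone had a narrower gap. In 1 it ran from -0.013 in casein plus E2 pool 3 to 0.013 in soy pool 3. In the other it ran from -0.048 in casein plus E2 pool 2 to 0.048 in soy pool 2.

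The E2 samples did not overlap the vehicle samples in 6 of the 7 genes, with 2.62% of all genes lower without overlap in the 11 samples. Within 3 of the groups members tended to share their extreme arrays. Soy plus E2 pool 3 was the highest of its group for 5 of the 7 genes, beside 33.2% of all genes, and soy pool 2 the lowest of its group for 6, beside 31.2%. Casein plus E2 pool 1 was the lowest of its group for all 7, beside 39.6% of all genes, in a group whose other 2 arrays are nearly 1. The casein pools had no common order, with pools 1, 2 and 3 lowest for 3, 1 and 3 genes. Over the 11 samples each member had a Pearson r between 0.75 (Idi1) and 0.99 (Cyp51) with the mean of the other 6. These r values include the shared difference between E2 and vehicle. Probe sets of one gene differed little in the E2 average, with -1.06 and -1.04 for Nsdhl, -0.76 and -0.70 for Cyp51 and -0.42 for both Idi1 probe sets.

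Leaving out casein plus E2 pool 1 reduced the 6 calls to 3. This leaves 1 sample in that group, which is assumed to vary like the samples of the other groups. Insig1 (-1.31, adjusted p = 0.0772 in limma), Msmo1 (-0.62, adjusted p = 0.0683) and Sqle (-0.47, adjusted p = 0.0707) then did not pass, and 313 of all genes passed against 1741. Within the 6 arrays of high spike-in signal, E2 minus vehicle was -2.37 for Insig1 and between -1.46 and -0.50 for the other 6 genes. Within the 6 of low signal it was -0.75 for Insig1 and between -0.48 and -0.17 for the others. Here casein plus E2 pools 2 and 3 were not averaged and made up 2 of the 4 E2 arrays of low signal. All 7 differences were below 0 in both sets, which are unequal in diet because no casein vehicle array had low signal. With the split as a term all 6 calls were kept, beside 836 of all genes called lower and 1067 higher. The term holds only the side of 0 and not the size of the signal, so it cannot show that the calls are free of it.

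The E2 effect within each diet was tested from the same fit, and the contrasts share arrays with one another. In soy-fed rats no member passed, with Insig1 at -1.30 ± 0.43, Nsdhl at -0.81 ± 0.23, Msmo1 at -0.67 ± 0.19, Sqle at -0.58 ± 0.16, Cyp51 at -0.53 ± 0.16, Idi1 at -0.28 ± 0.20 and Pmvk at -0.22 ± 0.09. Of all genes 0.0352% were called lower there, and 20.6% had an unadjusted p under 0.05, as 6 of the 7 members did. In 6 members the soy plus E2 pools lay below all soy pools, beside 12% of all genes. Without soy plus E2 pool 3, Insig1 (-1.77), Nsdhl (-1.0) and Msmo1 (-0.83) passed (adjusted p = 0.0313, 0.0485 and 0.0454 in limma). All genes called then numbered 760, against 31 with that pool.

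In casein-fed rats 3 members passed, beside 0.95% of all genes called lower and 2.43% in either direction. Pmvk fell by 0.70 ± 0.10, Cyp51 by 0.93 ± 0.18 and Nsdhl by 1.30 ± 0.26. Tested by probe set, Cyp51 passed in 1 (-1.07, adjusted p = 0.03865 in limma) and not in the other (-0.79, adjusted p = 0.0977). Nsdhl likewise passed in 1 (-1.27, adjusted p = 0.0432 in limma) and not in the other (-1.32, adjusted p = 0.0505). Insig1 (-1.90 ± 0.48), Msmo1 (-0.82 ± 0.21), Sqle (-0.63 ± 0.18) and Idi1 (-0.56 ± 0.22) did not pass. The casein plus E2 samples lay below the casein pools in all 7 members, beside 17.3% of all genes. No member passed without casein pool 1, casein pool 2 or casein plus E2 pool 1, and only Pmvk without casein pool 3, soy pool 2, soy pool 3 or soy plus E2 pool 2. Members called numbered 0 when only the 2 casein groups were fitted, 0 without casein pools 2 and 3 and soy pool 2, and 1 (Pmvk) with a term for spike-in signal.

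**Figure D2:**
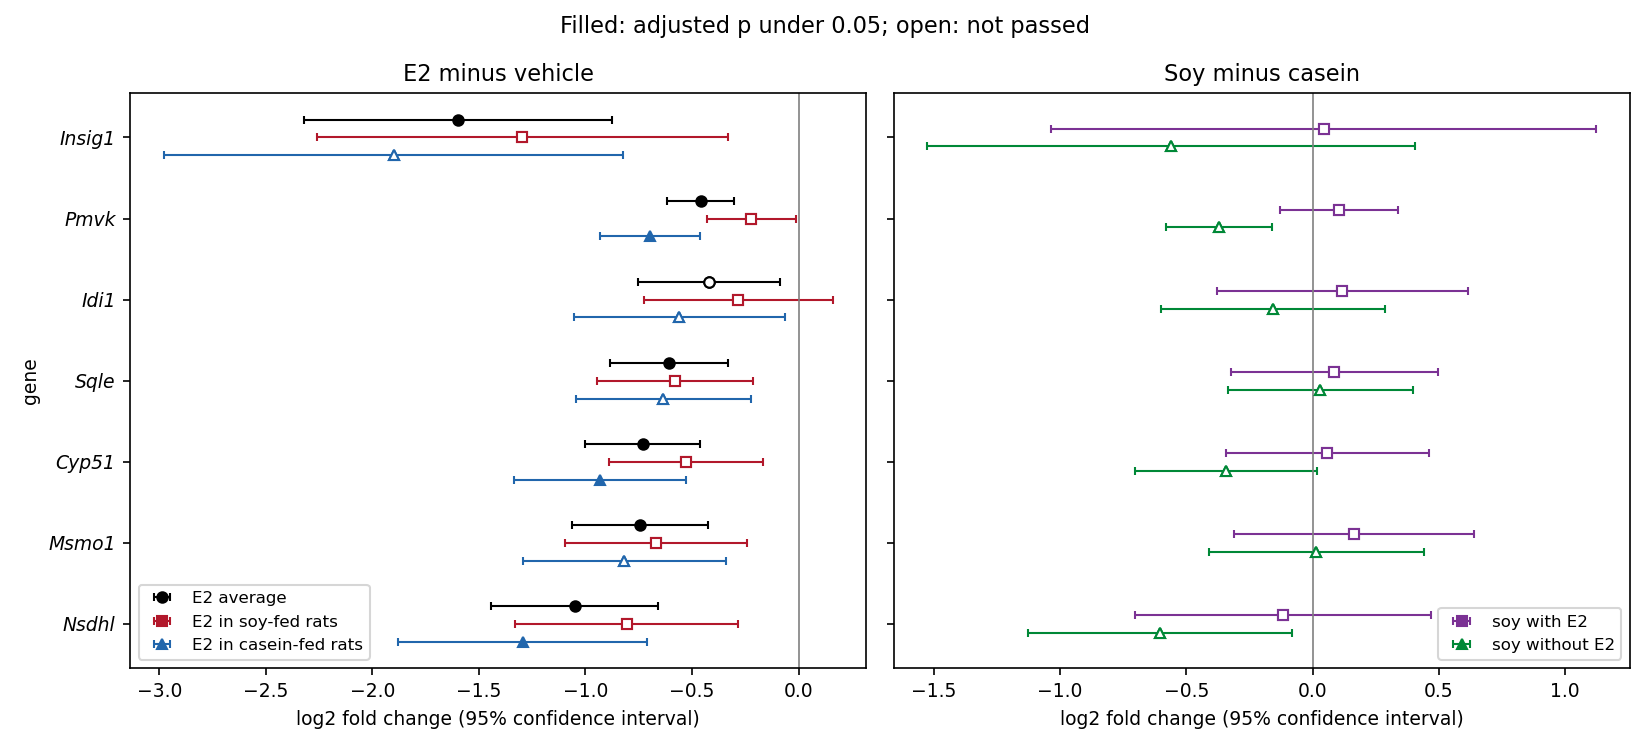
Log2 fold change with its 95% confidence interval (x axis) for each of the 7 genes (y axis), E2 minus vehicle on the left and soy minus casein on the right; filled symbols passed the test. E2 effects lie below 0 for all 7 genes, from -1.90 for Insig1 in casein-fed rats to -0.22 for Pmvk in soy-fed rats, and none of the soy effects passed.

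Subtracting the E2 change in casein-fed rats from that in soy-fed rats gave a value that was above 0 in all 7 genes, with a median of 0.40. Of all 14217 genes 7519 were below 0. The 7 genes moved together over the same arrays, so these are not 7 separate signs. For Idi1, Msmo1 and Sqle the sign turned in at least 1 alternative analysis. Without casein pools 2 and 3 and soy pool 2 the value was 0.17 for Nsdhl, -0.14 for Msmo1 and -0.29 for Sqle, and stayed above 0 for the others. The difference passed in 0 genes by limma (0% of all genes, with 6.53% at an unadjusted p under 0.05). Pmvk had the smallest p. Its difference was 0.47 ± 0.14 with a 95% confidence interval from 0.16 to 0.79 and an adjusted p of 0.577 in limma. The Insig1 difference was 0.61, with an interval from -0.84 to 2.05, and that of Sqle was 0.06, from -0.50 to 0.61. These intervals are too wide to show that the diets gave like responses.

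Soy without E2 changed no member past the test, as it changed no gene of all tested (0%, with 10.4% at an unadjusted p under 0.05, as 2 of the 7 members were). Nsdhl was at -0.61 ± 0.23 (95% confidence interval -1.13 to -0.08), Insig1 at -0.56 ± 0.43 (-1.53 to 0.40), Pmvk at -0.37 ± 0.09 (-0.58 to -0.16) and Cyp51 at -0.34 ± 0.16 (-0.70 to 0.02). Idi1 was at -0.16 ± 0.20, Msmo1 at 0.01 ± 0.19 and Sqle at 0.03 ± 0.16. Every soy pool was below every casein pool for Pmvk, Cyp51 and Nsdhl, beside 5.51% of all genes lower without overlap. For Cyp51 this held only in the average of its 2 probe sets. In each alone soy pool 1 stood above a casein pool (0.55 against 0.49 in casein pool 2, and 0.22 against 0.21 in casein pool 3). Pmvk passed without soy pool 1 (-0.45, adjusted p = 0.0479 in limma) and with array weights (-0.36, adjusted p = 0.0199). Those settings called 327 and 1588 of all genes, against 0 in the fit above. Leaving out casein pools 2 and 3 and soy pool 2, with 1 casein pool left, moved Nsdhl to -0.28, Insig1 to -0.42 and Cyp51 to -0.34. Msmo1 was then at 0.30 and Sqle at 0.38, and Pmvk and Idi1 stayed below 0.

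Soy in E2-treated rats changed no member either, beside 1 lower gene of all tested (0.00703%). The differences lay between -0.12 for Nsdhl and 0.16 for Msmo1, and 0 of 7 had an unadjusted p under 0.05, beside 725 of all genes (5.1%). The interval was from -0.13 to 0.34 for Pmvk and from -1.04 to 1.12 for Insig1. In order of group means the casein pools were highest for 5 genes, and the soy pools for Sqle and Msmo1, by 0.03 and 0.01. The E2 groups were below both vehicle groups for all 7. No difference between soy plus E2 and casein plus E2 passed the test.

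Other genes of the pathway were counted by role. Of 50 genes in the lists, 44 were measured and the other 6 were not analysed here. With E2 on average 13 of the 44 were called lower and 5 higher, beside 5.51% and 6.73% of all genes, and without the 7 members it was 7 lower and 5 higher of 37, with a median of -0.14. On leaving out single arrays the 13 lower calls ranged from 3 to 14 and the 5 higher calls from 1 to 5. Of the 12 called genes that are not members, Mylip kept its call without each of the 12 arrays, Nr1h3 without 11, and the other 10 without 3 to 6, all with the sign of their change kept. In the mevalonate steps 2 of 5 fell. Acat2, a thiolase that joins acetyl-CoA units, fell by 0.99 ± 0.23 beside Pmvk, while Mvk (-0.11 ± 0.08) and Mvd (0.17 ± 0.09) did not pass. Between isoprenoids and lanosterol 3 of 5 fell, with farnesyl diphosphate synthase Fdps lower by 0.57 ± 0.14 and squalene synthase Fdft1 by 0.43 ± 0.12 beside Sqle. Lss (-0.32 ± 0.11) and Ggps1 (-0.08 ± 0.07) did not pass. After lanosterol 4 of 9 fell. Sc5d, a sterol desaturase, fell by 0.46 ± 0.13 beside Cyp51, Msmo1 and Nsdhl, and Dhcr7 (-0.61 ± 0.19), Hsd17b7 (-0.50 ± 0.19), Tm7sf2 (-0.43 ± 0.18) and Ebp (-0.20 ± 0.09) did not pass. All 9 had changes below 0.

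None of the 6 other sterol sensing genes was called lower with E2 on average. Srebf1, the SREBP gene best known for fatty acid synthesis, rose by 0.61 ± 0.17 (adjusted p = 0.0417 in limma). Srebf2, the main SREBP gene of cholesterol synthesis, had 0.01 ± 0.05, with a 95% confidence interval from -0.11 to 0.13. Scap was at -0.07 ± 0.08, Insig2 at -0.35 ± 0.15, and the protease genes that cleave SREBPs, Mbtps1 and Mbtps2, at 0.16 ± 0.06 and 0.02 ± 0.07. None of these 5 passed, and Srebf2 is given although its values were seen first.

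**Figure D3:**
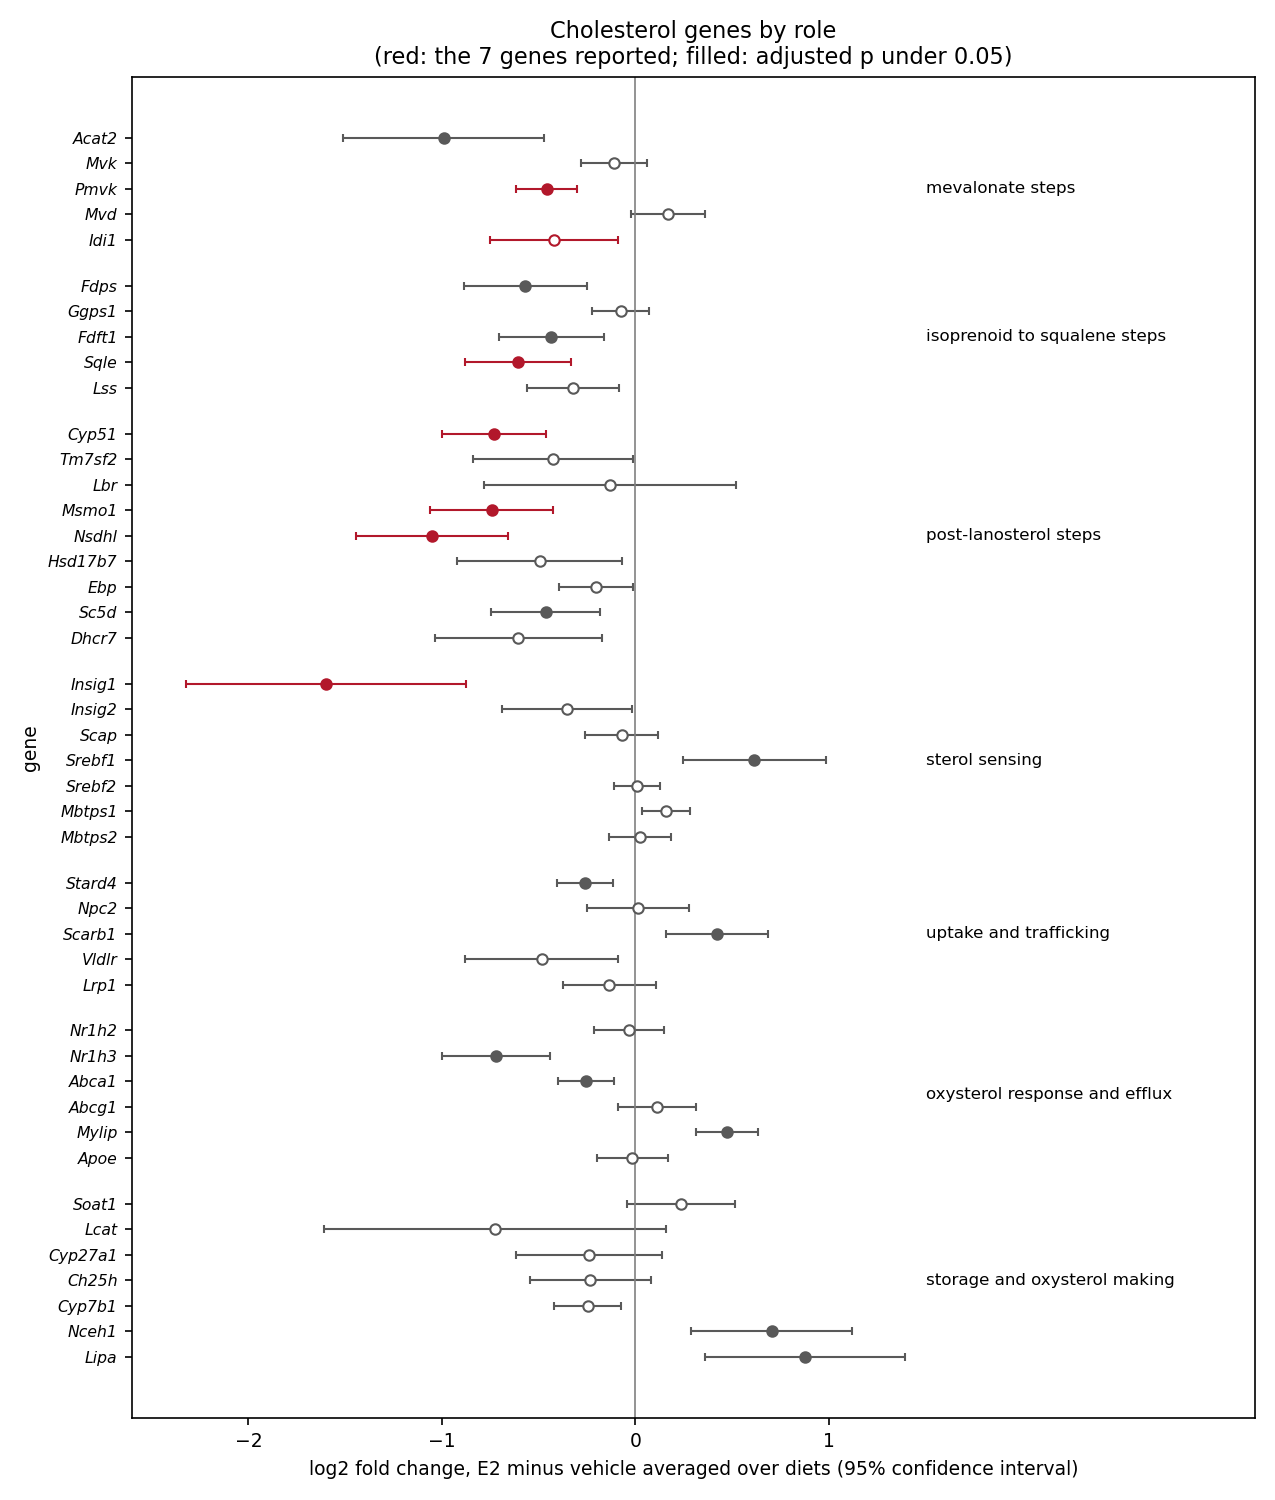
Log2 fold change of E2 minus vehicle averaged over diets, with its 95% confidence interval (x axis), for 44 cholesterol genes by role (y axis); red marks the 7 genes and filled symbols passed the test. Synthesis genes lie mostly below 0, Insig1 is lowest at -1.60, and Lipa is highest at 0.88.

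Genes of uptake, efflux and ester handling went both ways. Stard4, a sterol carrier, fell by 0.26 ± 0.06, and Scarb1, a lipoprotein receptor gene, rose by 0.42 ± 0.12 among 5 uptake and trafficking genes, while Vldlr (-0.48 ± 0.18) did not pass. Among 6 oxysterol response and efflux genes, the liver X receptor gene Nr1h3 fell by 0.72 ± 0.13, the cholesterol exporter Abca1 fell by 0.25 ± 0.06, and Mylip, a ubiquitin ligase gene acting on lipoprotein receptors, rose by 0.47 ± 0.07. Of 7 genes of storage and oxysterol making, Lipa and Nceh1 rose, by 0.88 ± 0.23 and 0.70 ± 0.19. Both encode enzymes that split cholesteryl esters, so they do the reverse of storage. Lcat (-0.73 ± 0.39) and Cyp27a1 (-0.24 ± 0.17) did not pass, and both were highest on the array with liver transcripts, casein pool 3, at 2.82 and 0.96. In casein-fed rats Nr1h3 (-1.0) and Mylip (0.63) passed besides the 3 members, beside 0.95% of all genes called lower and 1.48% higher, and in soy-fed rats 0 of the 44 did, beside 0.218% of all genes in either direction (15 of the 44 had an unadjusted p under 0.05).

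Fat cell transcripts moved in part with the 7 genes across arrays. The mean of 19 adipocyte genes was -1.34, -0.88 and 0.04 in soy plus E2 pools and -0.92, -0.33 and -0.34 in casein plus E2 pools, against 0.56, 0.01 and 0.28 in soy pools and 0.41, 0.89 and -0.02 in casein pools. The mean of the 7 genes was -0.58, -0.47 and -0.13 in soy plus E2 pools and -0.76, -0.16 and -0.15 in casein plus E2 pools, against 0.42, 0.06 and 0.22 in soy pools and 0.46, 0.60 and 0.49 in casein pools. Soy plus E2 pool 3 was highest within its group in both, and casein plus E2 pool 1 was lowest within its group in both. They parted in casein pool 3, the array with liver transcripts. Its adipocyte mean was -0.02, below soy plus E2 pool 3, and its mean of the 7 genes was 0.49. Soy pool 2, high in muscle transcripts, also had an adipocyte mean (0.01) below soy plus E2 pool 3 (0.04). The adipocyte means of E2 and vehicle arrays thus overlapped only through these vehicle arrays with other tissues' transcripts. Those of the 7 genes did not overlap, but the genes were chosen with results of these data known. With E2 on average 11 of the 19 adipocyte genes were called lower (median -1.02), 9 of 16 luminal epithelium genes higher (median 0.99) and 6 of 14 endothelial genes lower (median -0.48). Of all genes 5.51% were called lower and 6.73% higher. Of 17 liver, 14 skeletal muscle and 13 lymphocyte genes 0 passed, with medians of -1.09, -1.80 and 0.30. Array means of these lists could spread widely within a group, as from -1.41 to 2.20 for lymphocyte genes in soy pools. In whole-gland RNA, fewer cells of a type and less RNA per cell cannot be told apart, and the part of cell makeup in the result was not tested.

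**Figure D4:**
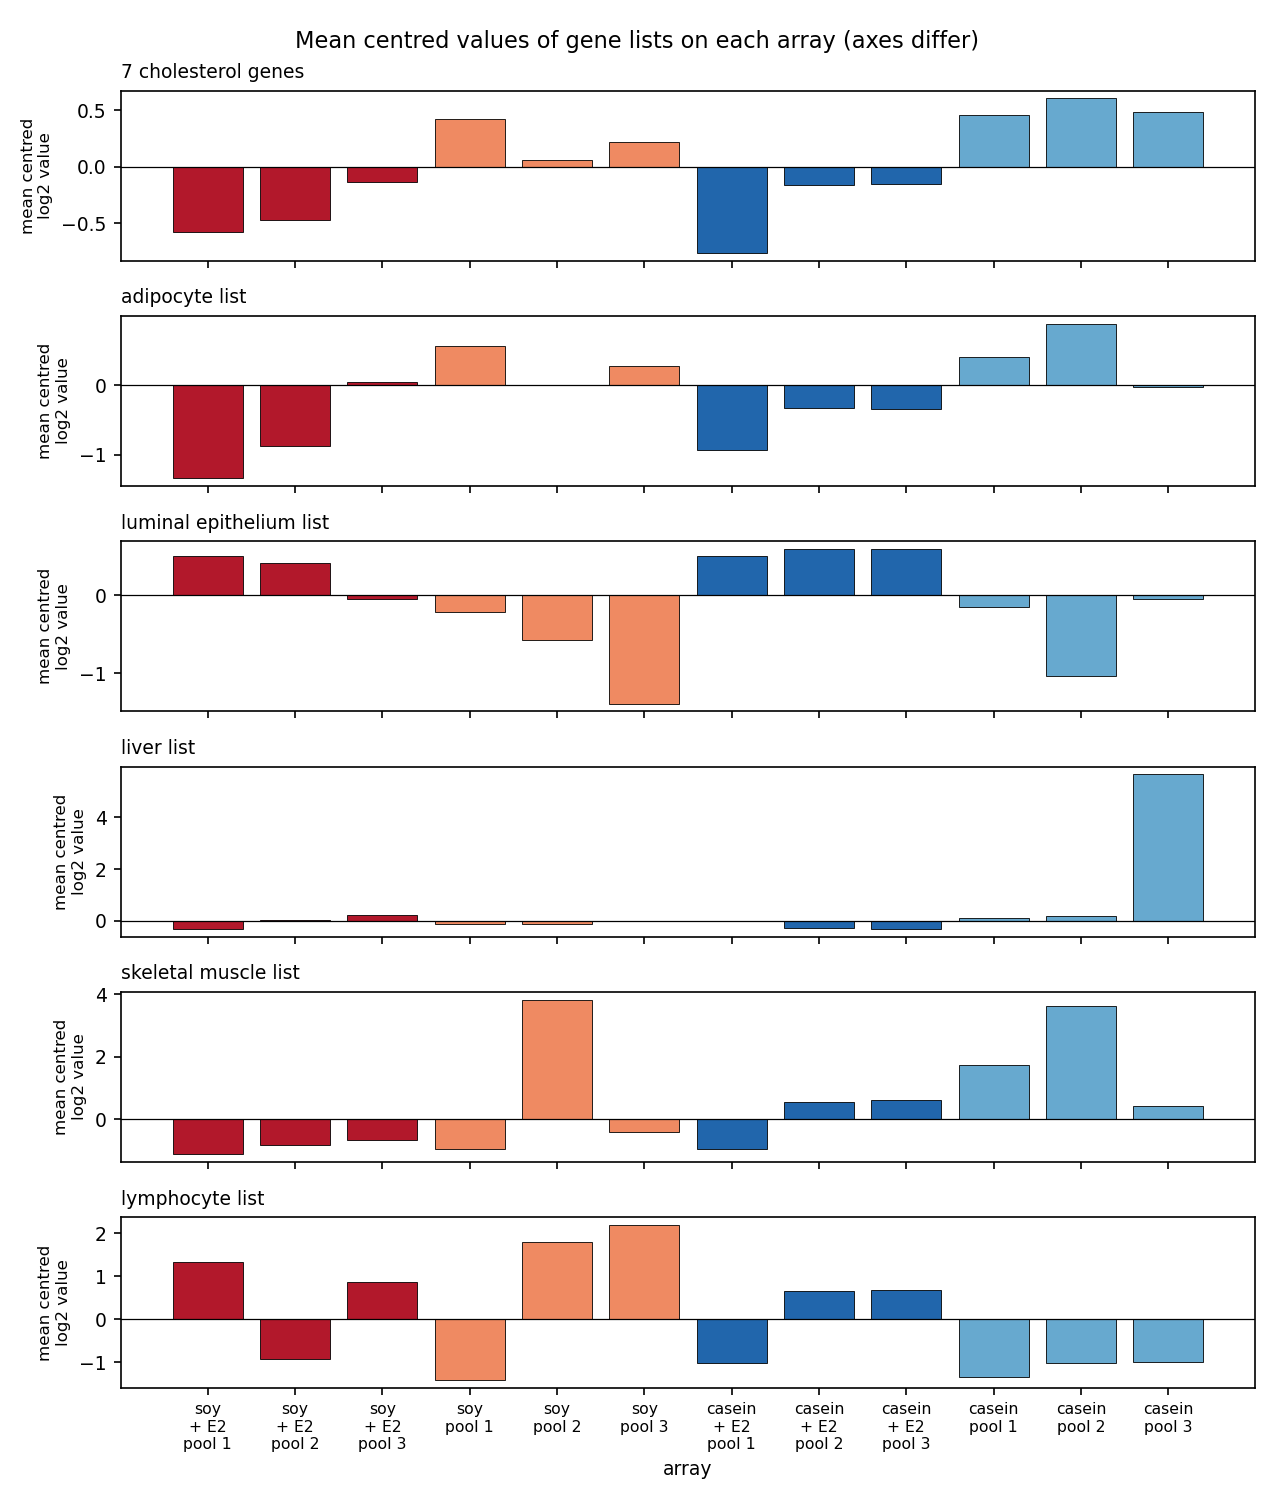
Mean centred log2 value (y axis, differing in range between panels) of the 7 genes and of 5 cell type lists on each array (x axis). The 7 genes and the adipocyte list are lowest on soy plus E2 pools 1 and 2 and casein plus E2 pool 1, and the liver list stands out on casein pool 3 at 5.67.

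Without casein pool 3, the array rich in liver transcripts, 6 members were called lower in the E2 average. Of all genes 808 were called lower and 872 higher in that setting. Muscle transcripts averaged between -1.12 and -0.66 in soy plus E2 pools and between -0.94 and 0.60 in casein plus E2 pools, against -0.95 to 3.83 in soy pools and 0.42 to 3.63 in casein pools. Without casein pools 2 and 3 and soy pool 2 together, which leaves 1 casein pool, 8 samples remain. The casein pool kept, pool 1, had a muscle mean of 1.73, above every E2 pool, so muscle transcripts were not evened out. The part of other tissues in the result was not tested. Idi1 then changed by -0.55, against -0.42 from all samples. The other changes were -1.68 for Insig1, -0.97 for Nsdhl, -0.79 for Cyp51, -0.73 for Msmo1, -0.56 for Sqle and -0.45 for Pmvk. These were close in size to those from all samples. No member passed at that sample number (adjusted p = 0.122 to 0.142 for these 6 in limma), and 2 of all genes did.

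Outside the cholesterol lists, the genes most like the mean of the 7 over the 11 samples were Mtarc1 (Pearson r = 0.970), Maoa (0.965), Cers6 (0.964), Scly (0.958), Lyrm1 (0.957), Acvr1c (0.956), Cat (0.952), Sptbn1 (0.952), Kcnd3 (0.951) and Mgll (0.949). That mean separates E2 from vehicle samples, so genes picked for likeness to it differ with E2 by selection, and their E2 averages, from -1.44 for Acvr1c to -0.37 for Kcnd3, are a description. Acvr1c averaged -0.86 in soy plus E2 and -1.10 in casein plus E2, against 0.39 in soy and 0.54 in casein. Within the cholesterol lists Fdps (0.959) and Fdft1 (0.946) were most like that mean, and Mbtps1 (-0.87) and Mylip (-0.82) ran most against it.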

How the data were processed

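RNA from pooled abdominal mammary glands (8 µg) was labelled with biotin for Affymetrix arrays of the rat, per the labels' protocols. The deposited table holds 31099 probe sets on 12 arrays. Per the submitters' processing notes the software was GCOS, from Affymetrix (no version). How probes were summarised and normalized, and the log base, is not given in the sources used here. A log2 scale was inferred for the deposited values, whose range within a probe set is at most 9.85, and each fold change rests on that. Each probe set is centred on its median (largest row median 5e-07). 1 label field of every sample names liver and the source field mammary gland, and samples were taken as mammary gland.

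Probe sets with 1 gene in the platform annotation (20826, of which 20758 matched GRCr8 by gene identifier) were averaged to 14217 genes. Another 436 carried several genes and named none. No filter on low values was possible. Groups and pool numbers came from the titles. The diet of the plain estradiol samples, casein, follows from the treatment protocol. Casein plus E2 pools 2 and 3 were averaged. A model of 4 group means on 11 samples (7 residual df) was fitted with limma 3.58.1 under R 4.3.3, with eBayes without trend, and gave 6 two-sided contrasts with Benjamini-Hochberg adjustment. Named were all members, called genes of the cholesterol lists with up to 4 uncalled ones per role, and the 10 genes most correlated with the member mean, without LOC or RGD symbols. The members and lists were chosen with earlier results of these data known. The code was tested on simulated data: of 14217 genes, 100 were changed by 1 log2 unit and 100 by 2, and the E2 average called 92% and 96% of them. The simulated noise was normal and independent between genes, with the same change in both diets. These shares thus check the code and do not give the sensitivity of this study. Alternatives were 12 separate arrays, pool number as a block, quantile normalization, median centring, the probe set of largest SD, only the contrast's groups, array weights, a term for whether 18 spike-in probe sets averaged above 0, leaving out 3 arrays with other tissues' transcripts, and each array in turn.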

Additional observations from a re-analysis of the deposited data

How the results depend on the processing

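For the E2 average 6 members were called lower under every one of the 7 other alternatives, 0 without casein pools 2 and 3 and soy pool 2 (8 samples left), and 3 to 6 without single arrays. Cholesterol genes called numbered 18, 0 without those 3 arrays and 4 to 17 without single arrays (4 without casein plus E2 pool 1, 8 without soy pool 3, soy plus E2 pool 1 or soy plus E2 pool 2 and 9 without casein pool 2 or soy pool 2), and all genes called 1741, 2641 with 12 separate arrays, 3318 with array weights, 2 without the 3 arrays and 313 to 2334 without single arrays (the lowest on leaving out casein plus E2 pool 1, then 640 and 642 on leaving out soy plus E2 pools 2 and 1, 899 without casein pool 2 and 1123 without soy pool 2). The fit of only the contrast's groups does not apply to the E2 average and the interaction, which use all 4. For E2 in casein-fed rats 3 members were called, 5 with 12 separate arrays, with quantile normalization or with array weights, 1 with a spike-in term, 0 with only the contrast's groups or without the 3 arrays and 0 to 4 without single arrays. Cholesterol genes called there numbered 5, 10 with 12 separate arrays, 8 with quantile normalization, 11 with array weights, 1 with only the contrast's groups, 0 without the 3 arrays and 0 to 6 without single arrays, and all genes called 346, 1369, 628, 1408, 200, 0 and 5 to 590 in that order, and 821 with 12 separate arrays and pool number as replicate block. For E2 in soy-fed rats 0 members were called, 3 with array weights and 0 to 3 without single arrays (3 without soy plus E2 pool 3). Cholesterol genes called were 0, 1 with the probe set of largest SD, 6 with array weights and 0 to 4 without single arrays. All genes called there were 31, 226 with 12 separate arrays, 234 with quantile normalization, 9 with only the contrast's groups, 2034 with array weights, 73 with the spike-in split, 3 without the 3 arrays and 0 to 760 without single arrays. The interaction had 0 member calls throughout. All genes called were 0, 4 with 12 separate arrays, 5 with array weights, and 1 with the block, the spike-in split or without the 3 arrays. For soy without E2 array weights called 1 member, 5 cholesterol genes and 1588 genes, and leaving out soy pool 1 called 1, 1 and 327 (0 to 327 over single arrays), against 0 in each otherwise. For soy with E2 the probe set of largest SD called 1 cholesterol gene, and all genes called were 1, 13 with 12 separate arrays, 3 with the block, 6 with quantile normalization, 2 with the probe set of largest SD, 7 with array weights and 0 to 3 without single arrays. The causes were not tested. With pool number as replicate block 6 members were called in the E2 average and 4 in casein-fed rats. Correlations of deviations between arrays of one number ran from -0.42 to 0.46, and 2 of 12 arrays were closest to their own number in other groups, so the numbers were not taken as pairs. Of the alternative values for single cholesterol genes 5044 kept their direction and side of the threshold, 148 lost and 48 gained a call, and 216 values of uncalled genes changed sign. Without levels, signal over background is unknown.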
